A study of Mus musculus with 6 samples.

Results

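The V1r receptor clusters are 4 stretches of the mouse genome that carry many of the genes for the first family of vomeronasal receptors. Their members here were all regions of a methylation array that lay in 4 windows of the mm9 build, chr7:20700000-24600000, chr6:56600000-58000000, chr6:89800000-90700000 and chr13:22150000-23550000. A region was a run of 3 or more probes whose starts were at most 500 bp apart. The windows held 1291 probes, of which 1256 lay in such runs, and gave 199 of the 22574 regions of the array. The chromosome 7 cluster had 102 regions, the chromosome 6 cluster at 57 Mb had 34, the chromosome 6 cluster at 90 Mb had 23 and the chromosome 13 cluster had 40. The clusters were chosen by position and not by a measured value, though earlier results of these data were known. No column of the array files names a gene, so the name of the clusters rests on position alone and no region is assigned to a receptor gene.

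Each of the 6 arrays was hybridised with immunoprecipitated methylated DNA (MeDIP) in Cy5, the red channel, and with the input DNA of the same hypothalamus sample in Cy3, the green channel. The 3 inulin arrays carried DNA of 16 week old offspring whose dams are labelled as given inulin, a fermentable plant fibre, and the 3 obesity arrays that of offspring of dams labelled as obese, elsewhere in the labels as fed a high fat diet. The labels do not say whether the inulin dams also had the high fat diet, nor which strain was used. They also leave unsaid if the offspring were from different litters, so a p-value here covers only the spread among these 6 samples, which may be technical. The comparison asks whether the methylation of offspring hypothalamus differs between these maternal groups, and all differences below are inulin minus obesity on the log2 scale. Between 94.4% and 96.4% of the probes of an array had an input signal that the scanning software called well above background, and 77.3% to 85.7% had such a MeDIP signal. The number of arrays limits the precision. All 3 inulin arrays lay on 1 slide and the obesity arrays on 2 others, so group and slide cannot be told apart within any slide.

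V1r receptors are G protein-coupled receptors of the vomeronasal organ, the sense organ through which mice detect pheromones. Each sensory neuron of the apical layer of that organ expresses very few of these genes, and the genes lie in tandem clusters that grew by duplication, so that neighbours can be nearly identical. Signals from that organ reach the hypothalamus through the accessory olfactory bulb and the amygdala. The MeDIP antibody binds methylated cytosine, which in the mouse lies mostly at CG dinucleotides (CpG sites), so DNA with few CpG sites can yield little MeDIP signal even where its sites are methylated.

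RefSeq promoters of V1r genes illustrate what such sequence looks like. They are given in the GRCm38.p6 build, which is not that of the array, so they were not placed on the array regions. Of 205 Vmn1r promoters of 300 bp, 166 (81.0%) held at most 2 CpG sites, against 23.8% of all 27025 promoters, and the median was 1 CpG site, against 7 over all promoters. The largest group, 83 genes on chromosome 7, stood out by repeated sequence. In the first 68 of them by position, up to Vmn1r166, every promoter but 1 shared a stretch of 45 bases with the promoters of at least 11 other genes and at most 25. In the 15 promoters that followed, no stretch was found in more than 1 other gene. There were 51 pairs of identical promoters in the group, formed by 52 genes. The group of 24 genes on chromosome 6 from 56956263 shared a stretch with at most 1 other gene, as did the group of 14 genes from 89713953, and the 32 genes on chromosome 13 did so with at most 2. Stretches of 45 bases were used because the shortest probes of the array have that length.

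The 6 promoters shown are the most alike pair of chromosome 7 promoters that are not identical, the last promoter of that group without a shared stretch, and 1 promoter from each of the other 3 groups named above with its group's median CpG count or the count nearest to it. They run 5′ to 3′, with CpG sites in capitals. Vmn1r242 lies at chr7:20233779-20234078 and Vmn1r111 at chr7:20703167-20703466, both on the minus strand. Vmn1r183 lies at chr7:24054524-24054823 (plus), Vmn1r5 at chr6:56970085-56970384 (plus), Vmn1r40 at chr6:89713953-89714252 (plus) and Vmn1r191 at chr13:22179533-22179832 (minus).
Vmn1r242: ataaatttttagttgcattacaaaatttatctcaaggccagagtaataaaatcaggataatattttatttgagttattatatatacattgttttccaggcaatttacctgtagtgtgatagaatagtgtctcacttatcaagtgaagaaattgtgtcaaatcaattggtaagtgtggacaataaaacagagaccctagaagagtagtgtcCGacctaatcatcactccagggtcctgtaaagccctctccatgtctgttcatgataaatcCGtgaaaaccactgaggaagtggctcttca
Vmn1r111: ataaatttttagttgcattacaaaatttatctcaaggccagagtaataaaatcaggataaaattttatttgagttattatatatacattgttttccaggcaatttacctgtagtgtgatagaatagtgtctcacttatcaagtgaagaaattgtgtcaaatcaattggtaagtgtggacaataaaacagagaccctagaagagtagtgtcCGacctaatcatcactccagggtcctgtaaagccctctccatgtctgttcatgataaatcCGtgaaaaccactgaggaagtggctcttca
Vmn1r183: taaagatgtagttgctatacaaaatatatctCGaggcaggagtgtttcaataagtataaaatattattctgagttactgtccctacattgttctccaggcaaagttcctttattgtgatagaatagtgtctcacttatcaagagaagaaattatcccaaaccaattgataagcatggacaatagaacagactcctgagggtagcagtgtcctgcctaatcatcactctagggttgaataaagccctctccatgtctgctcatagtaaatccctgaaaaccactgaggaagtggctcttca
Vmn1r5: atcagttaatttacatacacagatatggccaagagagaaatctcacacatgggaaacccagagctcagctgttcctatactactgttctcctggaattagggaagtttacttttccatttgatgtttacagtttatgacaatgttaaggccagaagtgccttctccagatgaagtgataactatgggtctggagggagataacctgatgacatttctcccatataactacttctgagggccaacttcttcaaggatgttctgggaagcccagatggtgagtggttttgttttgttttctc
Vmn1r40: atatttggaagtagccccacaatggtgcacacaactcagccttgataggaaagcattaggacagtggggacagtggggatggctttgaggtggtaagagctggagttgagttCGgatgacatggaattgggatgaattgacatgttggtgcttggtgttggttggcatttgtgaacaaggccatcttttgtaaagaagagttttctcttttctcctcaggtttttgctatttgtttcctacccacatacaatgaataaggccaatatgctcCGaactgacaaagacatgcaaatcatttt
Vmn1r191: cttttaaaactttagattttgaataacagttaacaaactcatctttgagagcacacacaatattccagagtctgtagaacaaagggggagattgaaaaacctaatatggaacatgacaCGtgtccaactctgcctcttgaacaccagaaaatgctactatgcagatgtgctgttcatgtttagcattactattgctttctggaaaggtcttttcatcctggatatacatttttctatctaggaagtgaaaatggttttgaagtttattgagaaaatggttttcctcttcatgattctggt
Vmn1r242 and Vmn1r111 agreed at 299 of 300 positions and differed by the substitution T61A, counted from 1 at the 5′ end with the base of Vmn1r242 first. Both held 2 CpG sites, all of their 45-base stretches occurred in other promoters, and 1 stretch occurred in 25 other genes. Vmn1r183 held 1 CpG site, Vmn1r5 held 0, Vmn1r40 held 2 and Vmn1r191 held 1, and none of these 4 shared a stretch with another promoter.

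**Figure D1:**
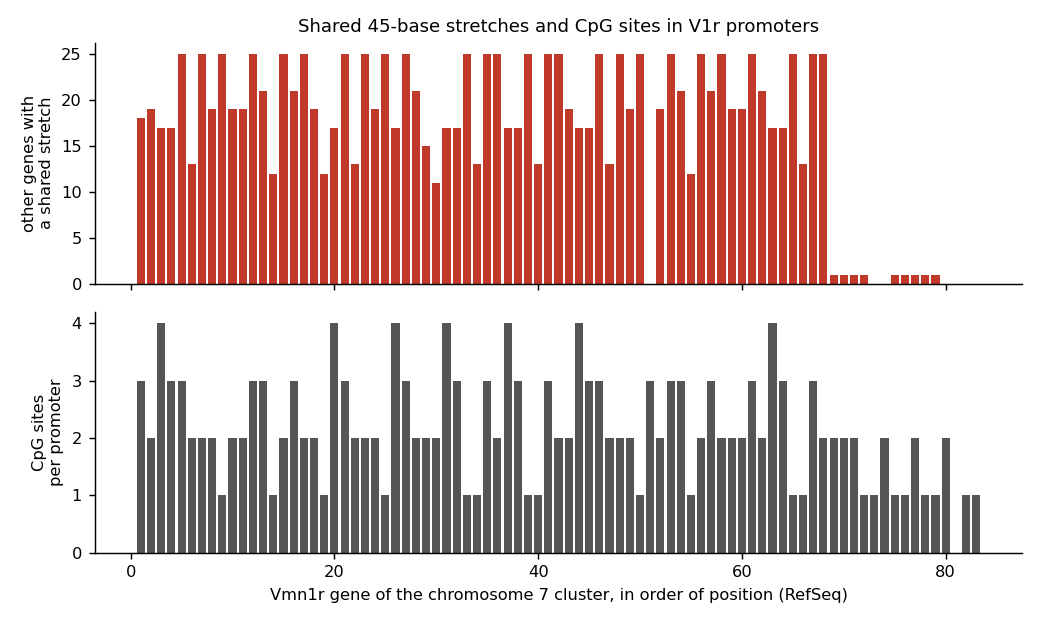
V1r promoters of the largest chromosome 7 group (RefSeq, GRCm38.p6), with the 83 genes in order of position on the x axis. Upper bars give the largest number of other genes that hold one of the promoter's 45-base stretches, and lower bars the number of CpG sites per promoter. Stretches found in more than 1 other gene end after the gene at place 68, while the CpG counts lie between 0 and 4 throughout.

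On the array, all 4 clusters had a MeDIP over input ratio below that of the rest of the genome, and chromosome 7 lay far lower than the others. The values are log2 of red over green, with each array centred on its median, so that 0 is the typical probe of an array. The median ratio over regions, averaged over the 6 arrays, was lower than that of all other regions by 2.87 ± 0.06 in the chromosome 7 cluster, by 1.07 ± 0.16 in the chromosome 6 cluster at 57 Mb, by 0.84 ± 0.13 in the chromosome 13 cluster and by 0.33 ± 0.11 in the chromosome 6 cluster at 90 Mb (SD, n = 6 arrays). Each of these 4 differences had the same sign on all 6 arrays (exact sign-flip test, two-sided, p = 0.0312, the smallest that 6 arrays allow, and adjusted p = 0.0335 over 30 level tests). All 6 differences in ratio between pairs of clusters also had 1 sign on all arrays (exact sign-flip test, adjusted p = 0.0335 each), so the order of the ratios from low to high was chromosome 7, chromosome 6 at 57 Mb, chromosome 13 and chromosome 6 at 90 Mb on every array.

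In the channels the clusters took different forms. The chromosome 7 cluster had a bright input, 2.59 ± 0.20 above the other regions, with a MeDIP signal 0.34 ± 0.15 below them (SD, n = 6 arrays). The chromosome 6 cluster at 57 Mb was dim in both channels, 0.57 ± 0.07 below the other regions in the input and 1.43 ± 0.09 below them in MeDIP. The chromosome 6 cluster at 90 Mb was brighter in the input by 0.58 ± 0.07 and dimmer in MeDIP by 0.29 ± 0.07. The chromosome 13 cluster was dimmer in MeDIP by 0.63 ± 0.15, while its input was 0.16 ± 0.19 above the other regions and did not keep 1 sign over the arrays (exact sign-flip test, adjusted p = 0.129). The other 7 of these 8 channel differences kept their sign on all 6 arrays (exact sign-flip test, adjusted p = 0.0335 each). Chromosome 7 and chromosome 6 at 90 Mb could not be separated by MeDIP signal, with a difference of -0.05 that ran from -0.39 to 0.16 over the arrays (exact sign-flip test, p = 0.625).

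**Figure D2:**
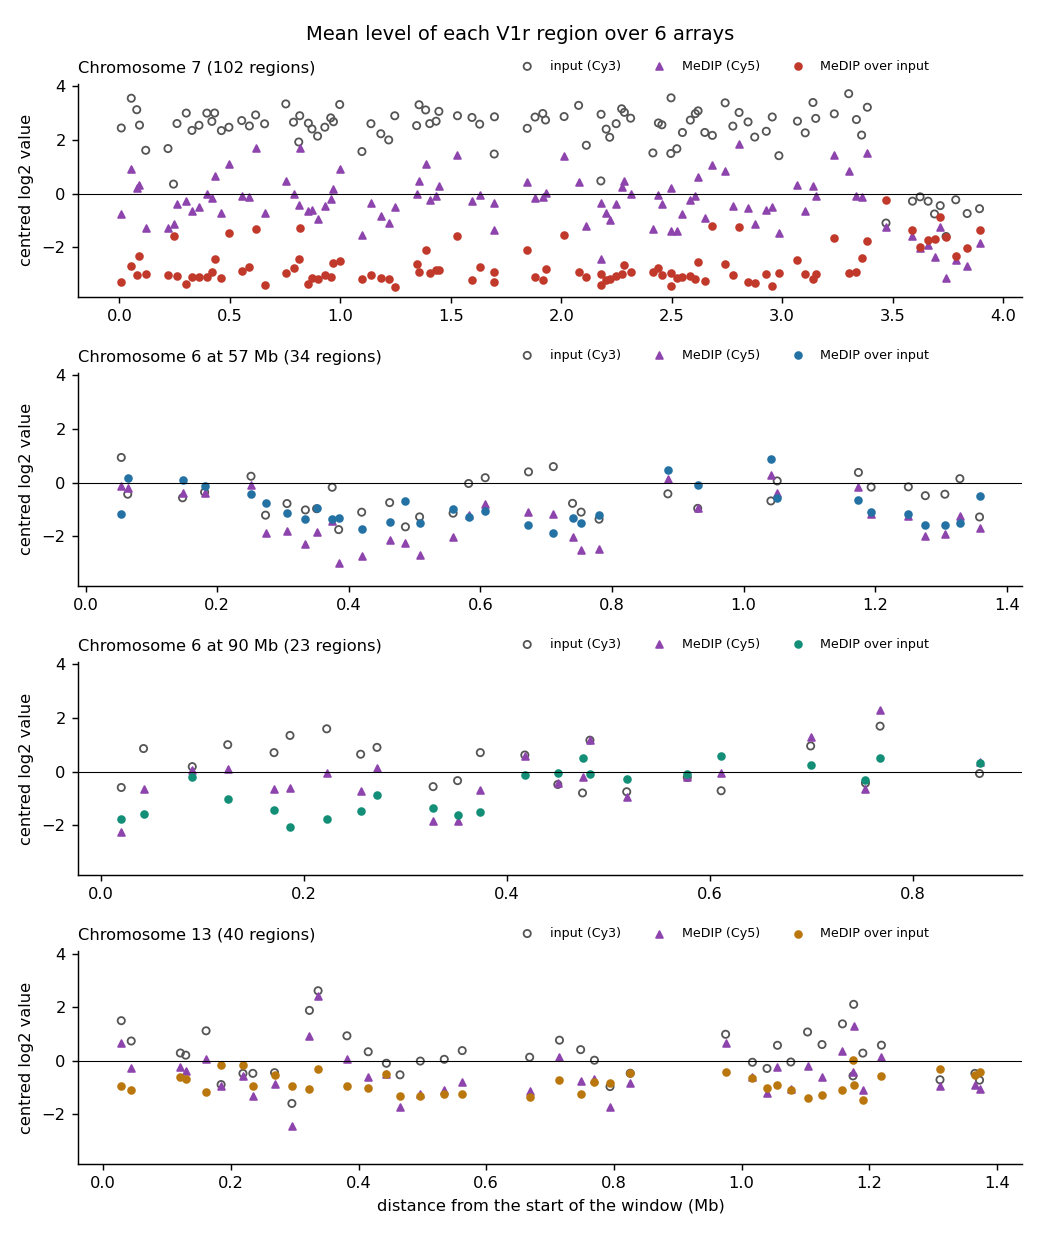
Mean level of each region over the 6 arrays against its distance from the start of its window (Mb), for the 4 clusters. Open circles are the input signal, triangles the MeDIP signal and filled circles the log2 ratio, all centred per array. In the chromosome 7 panel 91 regions with an input of 0.35 to 3.73 are followed by 10 regions with an input of -1.60 to -0.12, and in the other panels the 3 values lie closer together.

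Within the chromosome 7 cluster the levels differed between a long first and a short last stretch. The first 92 regions, chr7:20708049-24086631, of which 91 had a value, had a median input of 2.66 (0.35 to 3.73), a median MeDIP signal of -0.16 and a median ratio of -2.99 (-3.48 to -1.21). The last 10, chr7:24170279-24595474, had a median input of -0.51 (-1.60 to -0.12), a median MeDIP signal of -1.97 and a median ratio of -1.65 (-2.32 to -0.24). The split was placed where it best separated bright from dim mean input along the cluster, so the input levels on its sides are a description. The region with the highest ratio of the cluster, chr7:24170279-24171244, opens the last stretch, and its ratio was -0.12, -0.15 and 0.09 on the inulin arrays, against -0.23, -0.74 and -0.32 on the obesity arrays. The lowest ratio of all 199 regions was at chr7:21946210-21947618, with -3.38, -3.54 and -3.20 on the inulin arrays, against -3.45, -3.72 and -3.60 on the obesity arrays. The brightest input was at chr7:24001347-24002765, with 3.83, 3.76 and 3.40 on the inulin arrays, against 3.72, 3.87 and 3.77 on the obesity arrays. At both of these regions each array stood far from 0, and the groups overlapped.

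Such levels were rare elsewhere. A mean input above 2 together with a mean ratio below -2.5 was found at 89 regions of the array, of which 63 lay in the chromosome 7 cluster and 26 (0.116% of all other regions) outside the 4 clusters. Regions of chromosome 7 also repeated each other in how their probes were placed. The same probe spacing and probe lengths occurred in more than 1 region for 59 of the 102 regions (57.8%), all in the first stretch, and for 149 of the 22375 regions outside the clusters (0.666%). These 59 regions formed 27 layouts, 22 of 2 regions and 5 of 3. In the other 3 clusters 0 of 97 regions shared a layout.

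Probes at the same place in regions of 1 layout gave nearly the same values. Over 77 such pairs the median absolute difference was 0.07 in ratio, 0.06 in input and 0.08 in MeDIP signal, against 0.39, 0.95 and 0.90 between consecutive probes of these regions (100 pairs). Pairs within a layout share probe spacing and arrays, and are not independent. For example, the layout at chr7:21316299-21316946, chr7:21515982-21516629 and chr7:23505068-23505715 had mean ratios of -1.31, -1.28 and -1.26 and mean inputs of 2.93, 2.90 and 3.03. The regions of a layout are therefore not independent of each other. Probe sequences and the mm9 genome were not used here, so the number of places each probe matches was not determined, and its part in these levels was not tested.

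The chromosome 7 cluster was also where the scanning software marked most spots as outliers, and far more on the obesity arrays. It marked 1.44%, 4.13% and 4.49% of the 557 probes in the window on inulin arrays 1, 2 and 3, against 19.9%, 31.1% and 10.1% on obesity arrays 1, 2 and 3 (exact permutation test over arrays, two-sided, p = 0.1, the smallest that 3 against 3 arrays allow). In the other clusters these shares were 0% to 3.19%. Over the rest of the array they were 2.37% to 2.79% on the inulin arrays and 1.06% to 2.01% on the obesity arrays. The 215 probes of chromosome 7 that were marked on at least 1 array were the brighter ones, with a median input of 4.01 against 2.35 at the 342 others. A probe marked on any array was left out of all 6 arrays, so that a region compares the same probes in both groups. On chromosome 7 this left 326 of the 536 probes in regions, 43 of the 102 regions with fewer than 3 probes and 1 with none. The part of these marks in the group differences is shown only by the alternative treatments given with the results and was not tested otherwise. With the marked spots kept, the median level of the cluster was -2.81 in ratio and 3.06 in input, against -2.95 and 2.61 without them.

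**Figure D3:**
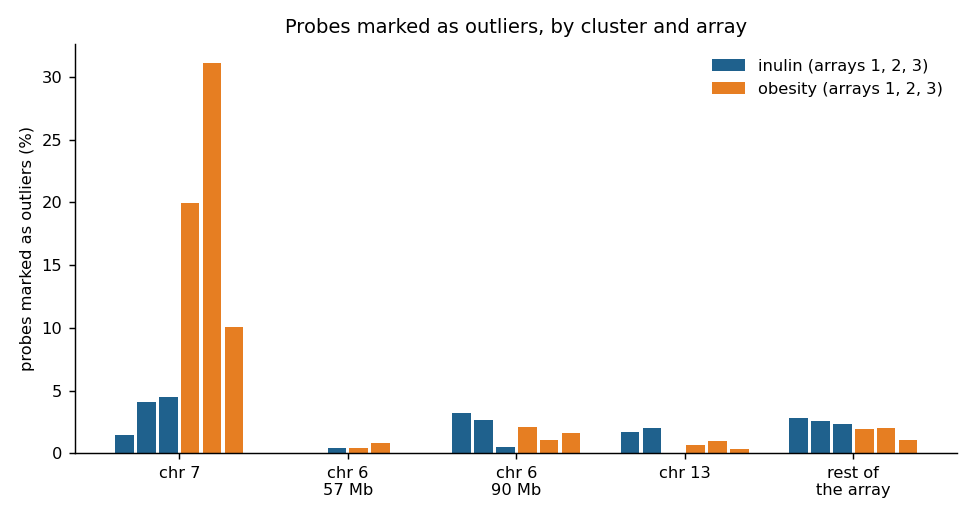
Share of probes (%) that the scanning software marked as outliers, by cluster and array, with a bar for each inulin array and then each obesity array. On chromosome 7 the obesity bars stand at 10.1% to 31.1% and the inulin bars at 1.44% to 4.49%, and in the other groups of probes all bars are at or below 3.19%.

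With each array centred on its median, 27 of 198 tested V1r regions passed the threshold for a group difference in ratio, 23 higher and 4 lower (limma, Benjamini-Hochberg adjusted p under 0.05 over all 22569 tested regions). Over all tested regions 11.1% passed. Of the V1r regions 11.6% were higher, against 7.86% of all tested regions, and 2.02% lower, against 3.26%. The inulin arrays lay above the obesity arrays without overlap at 53 V1r regions and below them at 10, against 21.3% and 15.5% of all tested regions. By cluster, 9 regions were higher and 1 lower of 101 on chromosome 7, 7 higher and 3 lower of 34 on chromosome 6 at 57 Mb, 3 higher and 0 lower of 23 on chromosome 6 at 90 Mb, and 4 higher and 0 lower of 40 on chromosome 13. The median difference over all V1r regions was 0.13, against 0.03 over all tested regions. At 5 of the 27 regions, all called higher, 50% or more of the probes never had MeDIP well above background on the arrays of a group, in both groups, so the size of their ratio difference is not given. With slide as a random block 0 of the V1r regions passed (limma, 45 of 198 at an unadjusted p under 0.05), against 68 over the whole array. Without inulin array 2 the count was also 0 (limma, 54 at an unadjusted p under 0.05), against 73 over the whole array.

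On an equal scale the result was another one. The ratios of the inulin arrays were less spread (median absolute deviation 0.678 to 0.690) than those of the obesity arrays (0.813 to 0.924), and were put on 1 scale by factors of 1.11 to 1.13 for the inulin arrays and 0.831 to 0.944 for the obesity arrays. On the inulin arrays such a factor moves a ratio away from 0, and on the obesity arrays toward 0, in proportion to its size. A region far below 0 in ratio, with a median-centred difference near 0, thus becomes lower in the inulin group by the scaling itself. After scaling, 77 V1r regions were lower in the inulin group and 0 higher (limma, adjusted p under 0.05), or 38.9% lower. Over all tested regions 5.46% passed, 2.69% lower and 2.77% higher. The inulin arrays lay below the obesity arrays without overlap at 88 V1r regions and above them at 8, against 14.5% and 16.3% of all tested regions. Of the 77 lower calls, 75 lay on chromosome 7 and 2 on chromosome 6 at 57 Mb. Only 2 V1r regions passed on both scales, both lower, and 0 were higher on one and lower on the other. At 109 of the 198 regions the difference was above 0 with median centring and below 0 on an equal scale. The slide block left 74 regions lower and 0 higher, while leaving out inulin array 2 left 0 (limma, 95 at an unadjusted p under 0.05), as it did over the whole array. Each slide held arrays of 1 group, so the block cannot take a slide difference out of the group difference.

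The medians over the regions of each cluster show the same dependence. On chromosome 7 the median ratio was -2.93, -2.97 and -2.83 on inulin arrays 1, 2 and 3, against -2.87, -2.996 and -2.99 on obesity arrays 1, 2 and 3, and the groups overlapped (difference 0.04; exact permutation test, two-sided, p = 0.5). With marked spots left out on their own array only the difference was 0.19 and the groups were apart (exact permutation test, p = 0.1), and with all spots kept it was 0.17 (p = 0.2). On an equal scale it was -3.32, -3.32 and -3.15 on the inulin arrays, against -2.71, -2.49 and -2.71 on the obesity arrays, without overlap (difference -0.63; exact permutation test, p = 0.1, the smallest possible). In both channels the medians were lower in the inulin group, by 0.19 in the input, where the groups overlapped, and by 0.18 in MeDIP, where they did not (exact permutation tests, p = 0.2 and p = 0.1). The MeDIP direction turned with 1 treatment of the marked spots. The median difference over regions was -0.06 with marked probes left out everywhere and -0.13 with all spots kept. It was 0.11 with spots left out on their own array only.

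In the other 3 clusters the median-centred ratio of the inulin arrays exceeded that of the obesity arrays by 0.18 to 0.28. On an equal scale the differences were -0.02 to 0.13. On chromosome 6 at 57 Mb the medians were -1.13, -0.99 and -0.85 on the inulin arrays, against -1.22, -1.30 and -1.28 on the obesity arrays (difference 0.28; exact permutation test, p = 0.1), and on an equal scale the groups overlapped (difference 0.02; p = 0.8). On chromosome 6 at 90 Mb they were -0.28, -0.34 and -0.23 on the inulin arrays, against -0.46, -0.49 and -0.56 on the obesity arrays (difference 0.22; exact permutation test, p = 0.1). This cluster was the only one of the 4 whose groups stayed apart in the same direction on an equal scale (difference 0.13; exact permutation test, p = 0.1), and that difference turned to -0.011 with normexp, -0.041 with probes above background in both channels and -0.093 with gaps of at most 300 bp. The regions of this cluster did not share that direction, as their equal-scale differences had a median of -0.02, with 10 above 0 and 13 below. On inulin array 3 and obesity arrays 1 and 3 the equal-scale median was the value of 1 region, chr6:90553574-90555286. On chromosome 13 the median-centred medians were -0.91, -0.72 and -0.79 on the inulin arrays, against -0.96, -0.89 and -1.11 on the obesity arrays, with overlap (difference 0.18; exact permutation test, p = 0.2), and the difference was -0.02 on an equal scale.

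**Figure D4:**
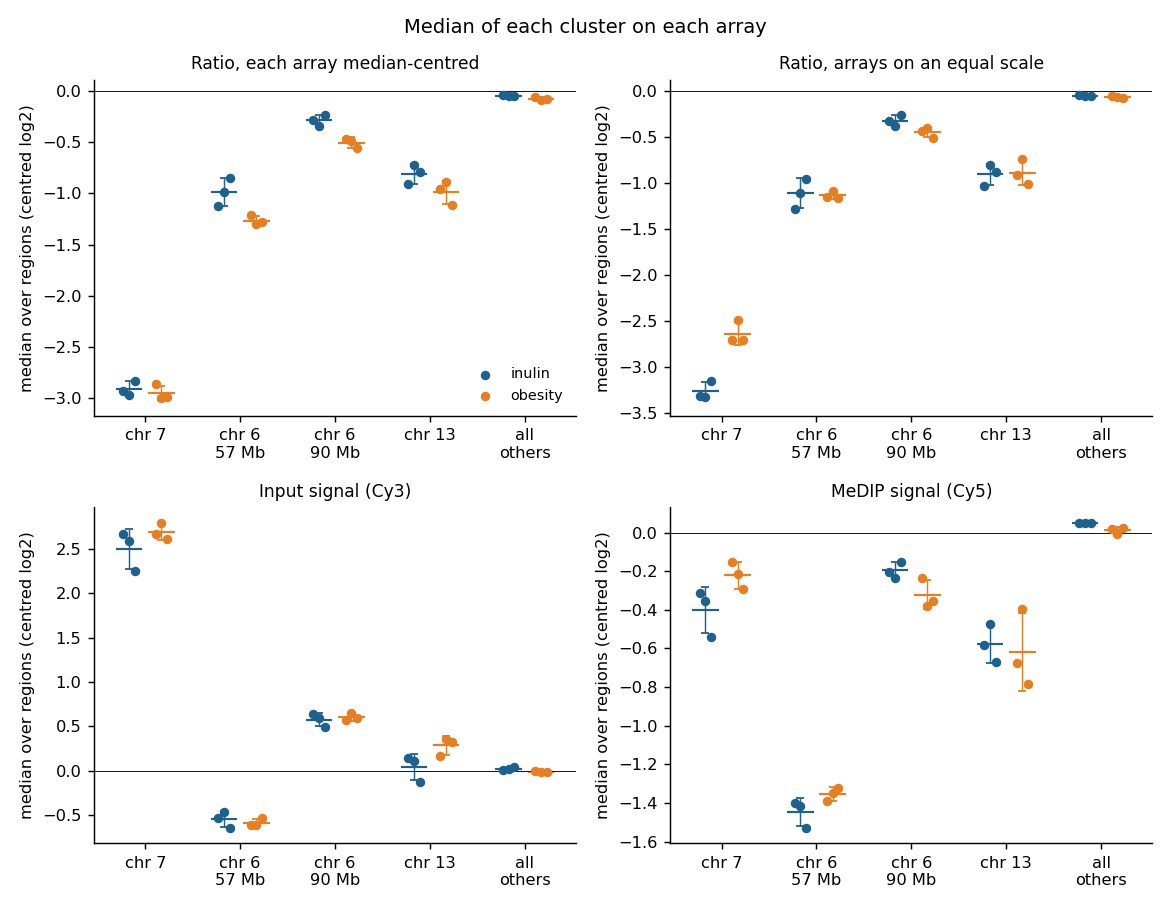
Median over the regions of each cluster on each array, for the ratio on both scales and for each channel, in centred log2 units. Points are arrays (inulin left, obesity right of each pair), lines are means and bars are SD over 3 arrays. On chromosome 7 the groups overlap in the median-centred ratio, and on an equal scale the inulin arrays lie between -3.32 and -3.15 and the obesity arrays between -2.71 and -2.49.

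Whether chromosome 7 behaved unlike the other clusters was tested on the chromosome 7 median minus that of another cluster within each array. With median centring the group difference was lower on chromosome 7 than on chromosome 6 at 57 Mb by 0.24 and than on chromosome 6 at 90 Mb by 0.17, without overlap of the groups (exact permutation tests, p = 0.1 each), and differed from that on chromosome 13 by -0.14, with overlap (p = 0.3). On an equal scale the same contrasts were -0.65, -0.76 and -0.61 (exact permutation tests, p = 0.1 each). Chromosome 7 lay below each other cluster on every array, so the scale factors lower these contrasts by themselves. The equal-scale contrasts therefore cannot decide whether chromosome 7 behaved unlike the other clusters. Under median centring the contrast with chromosome 6 at 57 Mb was 0.069 with probes above background in both channels, and the contrast with 90 Mb was 0.032 with those probes, 0.029 with normexp and 0.11 with loess. The contrast with chromosome 13 under median centring was 0.011 with the marked spots kept and 0.036 with marked spots left out on their own array only.

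**Figure D5:**
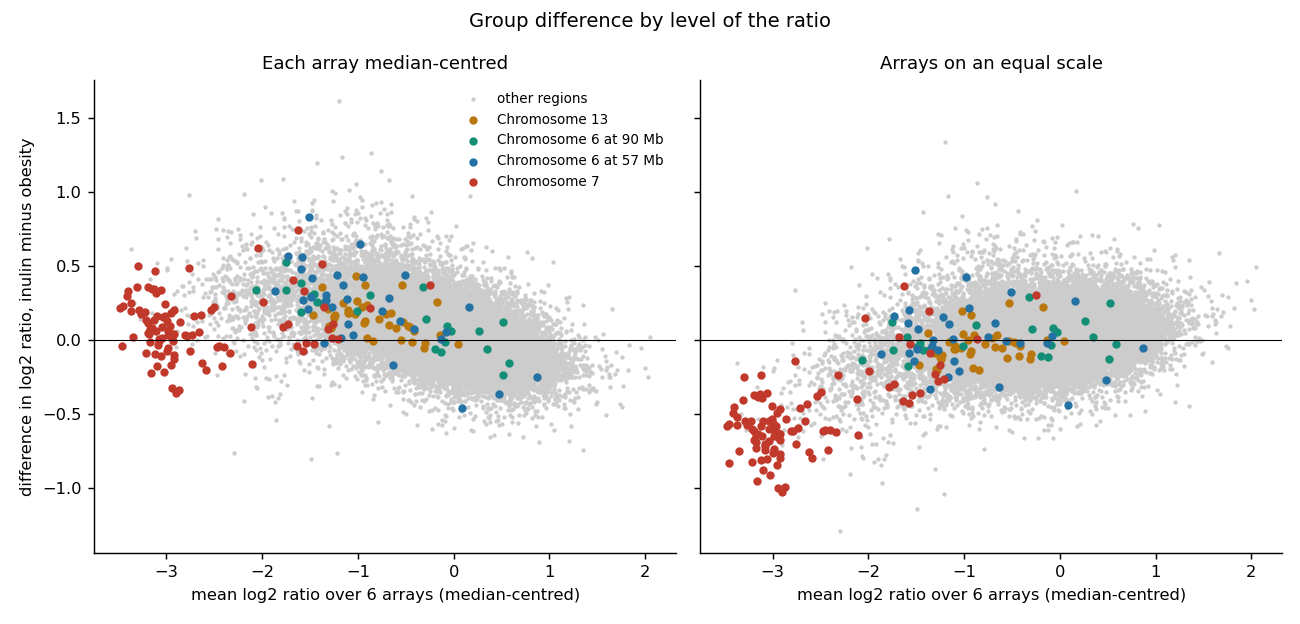
Difference in log2 ratio (inulin minus obesity) of each region against its mean ratio over the 6 arrays, with each array median-centred (left) and on an equal scale (right). Grey points are the regions outside the clusters. The chromosome 7 points lie at the low end of the ratio, around 0 on the left and mostly below 0 on the right, where 95 of 101 are negative.

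Of the 75 chromosome 7 regions that were lower on an equal scale, all lay in the first stretch, with a median difference of -0.61 (-1.02 to -0.36; limma, adjusted p 0.00721 to 0.0478). With median centring the same 75 regions had a median difference of 0.03 (-0.36 to 0.35), and 44 of them were above 0. By the number of probes used, 46 of the 59 regions with 3 or more probes (78.0%) were lower, as were 23 of 31 with 2 probes and 6 of 11 with 1. Outside the clusters, 84 regions had a mean ratio between the quartiles of chromosome 7 (-3.13 to -2.45). They had a median difference of -0.30 on an equal scale, with 31 lower and 0 higher, and of 0.30 with median centring, with 32 higher and 0 lower. The input of these 84 regions was dimmer, with a median of 1.47. No test of the difference between chromosome 7 and these regions was made.

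The lower ratio of chromosome 7 on an equal scale was seen with each treatment of the marked spots. The scaling was applied under each treatment and by itself moves low ratios down in the inulin group, so this agreement is no separate support. Of the chromosome 7 regions, 75 were lower and 0 higher with marked probes left out everywhere, 65 and 0 with marked spots left out on their own array only, and 79 and 0 with all spots kept. With median centring the counts were 1 lower and 9 higher, 0 and 10, and 0 and 16 in the same order. Quantile normalization of the ratios, which also gives all arrays the same spread, gave 41 lower and 0 higher regions. The authors' deposited table (scale unstated) gave 40 lower and 0 higher. Loess within arrays gave 0 lower and 15 higher, and normexp background correction with median centring gave 8 lower and 16 higher. With only probes that pass the background call in both channels, 63 of 78 regions were lower and 0 higher on an equal scale. Over all tested regions the calls in either direction were 4.05% with quantile normalization, 2.47% for the authors' deposited table, 16.6% with loess, 15.4% with normexp and 7.84% for probes above background in both channels on an equal scale.

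The region of chromosome 7 with the largest lower difference on both scales was chr7:21253262-21254681. Its ratio was -3.22, -3.10 and -2.92 on the inulin arrays, against -2.69, -2.77 and -2.70 on the obesity arrays (difference -0.36, SE 0.09; limma, adjusted p = 0.0327), and the equal-scale difference was -1.02 (SE 0.10; limma, adjusted p = 0.00721). The value rests on 1 of 6 probes, and with the marked spots kept the median-centred difference was 0.20 and not past the threshold (limma, adjusted p = 0.149). The equal-scale difference was then -0.49. The other regions of its layout, chr7:21452931-21454350 and chr7:23442032-23443451, had median-centred differences of 0.02 and -0.15 and equal-scale differences of -0.65 and -0.75. At the region with the lowest ratio, chr7:21946210-21947618, the equal-scale difference was -0.58 (limma, adjusted p = 0.0208), while the median-centred difference of 0.21 did not pass (limma, adjusted p = 0.196). At the brightest region, chr7:24001347-24002765, the equal-scale difference was -0.62 (limma, adjusted p = 0.0157), and the input differed by -0.12 with overlap of the groups.

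In the first 92 regions of chromosome 7 the inulin arrays averaged -2.97 ± 0.09 in median ratio, against -2.99 ± 0.08 for the obesity arrays (SD over 3 arrays; difference 0.02; exact permutation test, p = 0.6), and on an equal scale the inulin arrays averaged -3.33 ± 0.13, against -2.67 ± 0.14 for the obesity arrays (difference -0.66; exact permutation test, p = 0.1). In the last 10 regions no lower call was made on either scale. Their median ratio was -1.57, -1.40 and -1.16 on the inulin arrays, against -1.68, -2.00 and -1.78 on the obesity arrays (difference 0.44; exact permutation test, p = 0.1), and on an equal scale the difference was 0.07 (p = 0.7), with 0 regions called. With median centring 4 of the 10 were higher. The largest higher difference of the cluster on both scales fell here, at chr7:24442127-24443573, a region where all inulin arrays lay above all obesity arrays in ratio. Of its probes, 85.7% never had MeDIP well above background on an inulin array and 71.4% never on an obesity array, so no size is given for the ratio. The input there was lower in the inulin group by 0.44 (limma, adjusted p = 0.0137).

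Single channels gave fewer calls on chromosome 7 than the equal-scale ratio. The input was lower at 14 regions and higher at 5 (limma, adjusted p under 0.05), or 13.9% lower. Over all tested regions the input passed at 17.1%, lower at 6.89% and higher at 10.3%. On chromosome 7 MeDIP was lower at 5 and higher at 2. Over all 4 clusters the input was lower at 32 and higher at 12 of 198 regions, and MeDIP lower at 5 and higher at 3, against 1.48% lower and 4.23% higher of all tested regions (5.71% in all). Without overlap, the inulin arrays lay below the obesity arrays at 54 V1r regions and above them at 17 in the input (15.7% and 23.3% of all tested regions), and at 35 and 36 in MeDIP (13.4% and 21.9%). The channel counts moved with the marked spots. The input of the clusters had 44 calls with marked probes left out everywhere and 62 with all spots kept. With marked spots left out on their own array only it had 2. Over all tested regions the input passed at 17.1%, 24.7% and 2.14% in the same order. Only 2 regions passed in the same direction in all 3 treatments for the input and 0 for MeDIP, against 17 for the median-centred ratio and 61, all lower, for the equal-scale ratio. The scaling by itself lowers low ratios of the inulin arrays under each treatment, so the 61 are no measure of stability.

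The chromosome 6 cluster at 57 Mb held calls in both directions. Its 3 lower regions were all above 0 in mean ratio and its 7 higher regions all at -0.98 or lower. No gene is assigned to these regions, and whether they lie at V1r genes was not determined. The largest lower difference on both scales was at chr6:56747322-56748895, where the ratio was -0.23, -0.09 and -0.10 on the inulin arrays, against 0.23, 0.39 and 0.34 on the obesity arrays, with all inulin arrays below all obesity arrays (difference -0.46, SE 0.08; limma, adjusted p = 0.0135). On an equal scale the difference was -0.44 (SE 0.07; limma, adjusted p = 0.0175), 1 of only 2 regions of the clusters called on both scales. There the input was -0.35, -0.23 and -0.17 on the inulin arrays, against -0.94, -0.72 and -0.98 on the obesity arrays (difference 0.63; limma, adjusted p = 0.00189), and the MeDIP signal overlapped between the groups (difference 0.15; adjusted p = 0.431). Of the channels, only the input passed the test at this region.

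The highest ratio of the 4 clusters was at chr6:57641583-57643195, with 0.75, 0.74 and 0.76 on the inulin arrays, against 1.06, 0.96 and 0.98 on the obesity arrays (difference -0.25; limma, adjusted p = 0.0436), and -0.06 on an equal scale (adjusted p = 0.665). Its input was higher in the inulin group by 0.44 (limma, adjusted p = 0.0265). The lowest ratio of the cluster, at chr6:57310881-57312473, was -1.87, -1.67 and -1.57 on the inulin arrays, against -1.97, -1.99 and -2.14 on the obesity arrays (difference 0.33; limma, adjusted p = 0.0491), and the difference was -0.09 on an equal scale (adjusted p = 0.632). The largest higher difference on both scales was at chr6:57107614-57109389, where 75% of the probes never had MeDIP well above background on an inulin array and 75% never on an obesity array, so no size is given for the ratio. The input there was lower in the inulin group by 0.51 (limma, adjusted p = 0.0146). The brightest input of the cluster, at chr6:56654194-56655938, was 1.07, 1.07 and 1.06 on the inulin arrays, against 0.88, 0.87 and 0.69 on the obesity arrays (difference 0.25; limma, adjusted p = 0.0431).

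The chromosome 6 cluster at 90 Mb was split by level. Its 10 regions with a mean probe length under 50 bp had a median ratio of 0.12, and its 13 regions with longer probes one of -1.46. The regions with a mean ratio above 0 all started at chr6:90274681 or later, and whether they lie at V1r genes was not determined. Across the 23 regions of the cluster the mean ratio and the mean probe length correlated at -0.91, against -0.67 across all regions of the array, a description across regions that share arrays and base composition. The highest ratio, at chr6:90411321-90413078, was 0.55, 0.51 and 0.45 on the inulin arrays, against 0.76, 0.62 and 0.61 on the obesity arrays, and the lowest, at chr6:89986337-89988042, was -1.88, -1.99 and -1.82 on the inulin arrays, against -2.06, -2.43 and -2.22 on the obesity arrays. At both the groups did not overlap, in opposite directions, and neither passed the threshold (limma, adjusted p = 0.189 and 0.0567). The brightest input of the cluster, at chr6:90567989-90569700, was 1.62, 1.60 and 1.58 on the inulin arrays, against 1.84, 1.64 and 1.91 on the obesity arrays, and its MeDIP signal averaged 2.31.

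Of the 3 regions called higher in this cluster, chr6:90553574-90555286 had the largest difference on an equal scale. Its ratio was -0.08, -0.10 and -0.23 on the inulin arrays, against -0.46, -0.47 and -0.56 on the obesity arrays (difference 0.36, SE 0.07; limma, adjusted p = 0.0218), and the equal-scale difference was 0.29 (limma, adjusted p = 0.053). The input there was lower in the inulin group by 0.29 (limma, adjusted p = 0.0217). With median centring the largest higher difference was at chr6:89820024-89821723, where 55.6% of the probes never had MeDIP well above background on an inulin array and 55.6% never on an obesity array, so no size is given. The largest lower differences, -0.24 at chr6:90274681-90276174 with median centring and -0.18 at chr6:89841970-89843574 on an equal scale, did not pass (limma, adjusted p = 0.0972 and 0.269).

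The chromosome 13 cluster had the narrowest range of ratios, -1.47 to 0.04. Its lowest ratio, at chr13:23339807-23341491, was -1.46, -1.36 and -1.33 on the inulin arrays, against -1.48, -1.53 and -1.63 on the obesity arrays, and its highest, at chr13:23324411-23324982, was -0.04, 0.16 and -0.03 on the inulin arrays, against -0.02, 0.22 and -0.03 on the obesity arrays. The brightest input, at chr13:22486669-22487243, was 2.62, 2.63 and 2.56 on the inulin arrays, against 2.56, 2.52 and 2.80 on the obesity arrays, with a MeDIP signal of 2.40 on average, so this region was bright in both channels. The largest higher difference with median centring was at chr13:22565187-22566784, where the ratio was -0.91, -0.68 and -0.83 on the inulin arrays, against -1.10, -1.21 and -1.41 on the obesity arrays (difference 0.43, SE 0.10; limma, adjusted p = 0.0276). On an equal scale the groups overlapped there (difference 0.20; adjusted p = 0.228). The largest higher difference on an equal scale, 0.25 at chr13:23515297-23516814, did not pass (limma, adjusted p = 0.066), while its median-centred difference of 0.37 did (adjusted p = 0.0201). The largest lower differences of the cluster, -0.05 at chr13:23460665-23461367 with median centring and -0.20 at chr13:23275894-23276887 on an equal scale, did not pass either (limma, adjusted p = 0.801 and 0.403).

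Windows of other chemosensory genes are given for their levels. The 227 regions on chromosome 2 from 85 to 90 Mb, a window of olfactory receptor genes, had a median ratio of -0.91 and a dim input of -1.29. Of these, 89 were higher in the inulin group and 1 lower with median centring (limma, adjusted p under 0.05), and 26 higher and 2 lower on an equal scale. Over all tested regions 7.86% were higher and 3.26% lower with median centring, and 2.77% higher and 2.69% lower on an equal scale. The 22 regions on chromosome 4 from 60 to 62 Mb, a window of genes for the major urinary proteins, which carry pheromones, had a median ratio of -2.06 with a bright input of 2.01, nearer to chromosome 7 (-2.95 and 2.61) than any of the other V1r clusters was in either value. There 17 were higher and 0 lower with median centring, and 0 passed on an equal scale (limma, 2 at an unadjusted p under 0.05), where the median difference was 0.00, against -0.58 over the regions of chromosome 7. No test of a difference between these windows and the V1r clusters was made.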

How the data were processed

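MeDIP and input DNA were compared on 6 two-colour Agilent arrays, 3 per group. Per the file headers, the authors extracted the scans with Feature Extraction 11.0.1.1 and positions in mm9. The processed signals are intensity values, background-subtracted and dye-normalized per the file headers, and the deposited log10 ratio matched the ratio of these signals at 98.5% to 99.6% of the probes of an array. A score per probe was also deposited by the authors in 1 table. Its log base, scale and centring are unstated, and it runs in the direction of the ratio (correlation 0.87 to 0.91). Array medians in it lay between 0.043 and 0.061.

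Values were log2 of red over green processed signal, and log2 of each channel, centred per array on the median of probes that are not controls. Region values are means over probes that no array marked as an outlier. This treatment was chosen after the results of all 3 treatments (probes left out everywhere, spots left out per array, spots kept) had been seen. The reason was that spots left out per array make a region average different probes on different arrays. The other treatments are alternatives added after the data were seen. For an equal scale, ratios were scaled to 1 median absolute deviation. Groups were compared over all 22569 regions with a value, two-sided, in R 4.3.3 by limma 3.58.1 (moderated test, Benjamini-Hochberg adjustment, threshold 0.05), which was tested on simulated data, and single values per array by exact permutation or sign-flip tests. A slide is the set of arrays with 1 scan identifier in the headers.

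Named regions are, per cluster, those with the largest higher and lower difference on each scale and the highest and lowest ratio, and the brightest input, among regions with input well above background at 50% or more of their probes on every array. The members, comparison windows and this rule were chosen with earlier results of these data known. Regions of 1 layout, the split of chromosome 7 and the regions of like ratio were chosen after the values were seen. Promoters are RefSeq's, 1 per gene symbol. Gene names of regions were not analysed here.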

Additional observations from a re-analysis of the deposited data

How the results depend on the processing

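The limits are 3 arrays per group, slides that each hold 1 group, and marked spots that differ between the groups on chromosome 7. Of the count, median and level results under all alternatives, 239 of 321 were kept and 82 were not. A count was kept if its total stayed within 1.5 times, whatever the direction of the calls. Other results were kept if their sign and side of the threshold stayed. Tests of 3 against 3 arrays allow no p under 0.1, so there only the sign could change. Level tests with 1 array left out allow no p under 0.0625, so these could not be kept. The tally is therefore no measure of stability. For the 27 V1r regions called on the median-centred ratio, the count was 77 on an equal scale (0 higher, 77 lower), 41 in the authors' deposited table (0 and 41), 43 after quantile normalization (0 and 43), 14 with probe medians and 0 with slide as a random block. With probe medians that is 7.07% of the V1r regions, against 7.29% of all tested regions. Over all tested regions 5.46% passed on an equal scale, 2.47% in the deposited table, 4.05% after quantile normalization and 0.301% with the slide block. The 77 equal-scale calls became 22 with gaps of at most 300 bp, which left 149 V1r regions to test (14.8% called, against 4.20% of all tested regions) and a chromosome 7 difference of -0.59. The 44 input calls became 29 with normexp and 22 with the slide block, where 9.68% and 9.23% of all tested regions passed. The 8 MeDIP calls became 18 with input above background and 14 with both channels above background. With the slide block there were 0 (limma, 32 at an unadjusted p under 0.05). Over all tested regions MeDIP passed at 7.65%, 6.89% and 0% in the same order. Leaving out 1 array gave 0 to 26 median-centred, 0 to 85 equal-scale, 27 to 43 input and 0 to 24 MeDIP calls, with 0 median-centred and 0 equal-scale calls without inulin array 2. The causes were not tested.

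The treatment of marked spots was chosen after its results were seen. With marked probes left out everywhere, spots left out per array and all spots kept, the counts were 27, 21 and 35 for the median-centred ratio, 77, 66 and 82 for the equal-scale ratio, 44, 2 and 62 for the input, and 8, 1 and 17 for MeDIP. The chromosome 7 difference was 0.04, 0.19 and 0.17 with median centring (exact permutation tests, p = 0.5, 0.1 and 0.2) and -0.63, -0.44 and -0.50 on an equal scale.

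These differences of medians turned their sign. With median centring, chromosome 7 (0.04) gave -0.63 on an equal scale, -0.28 in the authors' deposited table, -0.41 after quantile normalization and -0.045 with gaps of at most 300 bp. Chromosome 6 at 57 Mb (0.28) gave -0.027 in the authors' deposited table and -0.036 with both channels above background. Chromosome 13 (0.18) gave -0.019 on an equal scale, -0.041 in the authors' deposited table and -0.031 after quantile normalization. Chromosome 7 minus chromosome 6 at 57 Mb gave 0.069 with both channels above background, minus 90 Mb 0.029 with normexp, 0.11 with loess and 0.032 with both channels above background, and minus chromosome 13 0.011 with spots kept and 0.036 with spots left out per array. On an equal scale, chromosome 6 at 57 Mb (0.02) gave -0.0081 with normexp, -0.036 with input above background, -0.10 with both channels, -0.064 with the median of the probes and -0.060 to 0.11 with 1 array left out. Chromosome 6 at 90 Mb (0.13) gave -0.011 with normexp, -0.041 with both channels and -0.093 with gaps of at most 300 bp. Chromosome 13 (-0.02) gave 0.046 with both channels, 0.037 with the median of the probes and -0.079 to 0.051 with 1 array left out. Of the named regions, chr7:21253262-21254681 gave 0.20 with spots kept, chr13:23460665-23461367 gave -0.15 to 0.091 with 1 array left out (0.091 without obesity array 3), and the equal-scale difference at chr13:23515297-23516814 gave -0.0025 with the median of the probes.

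The cluster levels kept their sign throughout. With 1 array left out they ran from -2.89 to -2.86 (chromosome 7), -1.12 to -1.04 (57 Mb), -0.36 to -0.31 (90 Mb) and -0.87 to -0.80 (chromosome 13), with an exact sign-flip p of 0.0625, the smallest that 5 arrays allow. Deviations of arrays with the same replicate number correlated at -0.16, 0.32 and 0.36, and those with different numbers at -0.41 to 0.23. Whether the numbers stand for anything shared was not tested. With the replicate block 46 median-centred, 90 equal-scale, 61 input and 40 MeDIP regions were called, or 23.2%, 45.5%, 30.8% and 20.2% of the V1r regions. Calls over all tested regions also rose with the block, to 18.5%, 11.4%, 20.1% and 15.5%.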
